A study of Drosophila melanogaster with 2 samples.

Results

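The genes of the microRNA (miRNA) and small interfering RNA (siRNA) pathways of Drosophila melanogaster were examined for binding of the CG42726 protein near their starts. The 9 genes, AGO1, AGO2, Dcr-1, Dcr-2, drosha, pasha, loqs, r2d2 and Tudor-SN, were taken by name from a fixed list, out of 13945 protein-coding genes on the same chromosomes. A gene counted as having a region when the summit of a called region lay within 1 kb of any of its annotated starts. The data came from chromatin immunoprecipitation followed by sequencing (ChIP-seq) of whole embryos aged 0 to 24 hours. These were of a transgenic strain that carries CG42726-eGFP, a fusion with a green fluorescent protein, and an antibody against GFP was used. There were 2 biological replicates of this 1 group, with no other genotype or treatment, and the labels do not say what drives the fusion gene. All cell types of the embryo were mixed, and no untagged control was analysed here. The files list regions with the authors' signal and hold no read counts, so the depth is unknown and no groups could be compared.

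In flies, primary miRNA transcripts are cut in the nucleus by Drosha and its partner Pasha. The resulting hairpins are cut again in the cytoplasm by Dicer-1 with Loquacious (the protein of loqs), and the product is loaded mainly into Argonaute-1. Long double-stranded RNA, such as that of viruses and transposable elements, is cut by Dicer-2, which acts with R2D2 to load Argonaute-2. Tudor-SN, a protein with nuclease-like domains and a Tudor domain, was found as a component of the RNA-induced silencing complex (RISC).

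Among the 9 genes, AGO1 and Tudor-SN had a region in the conservative list, which holds 2752 regions. These met the authors' limit on the irreproducible discovery rate (IDR), a measure of how well the ranks of regions agree, when replicate 1 was set against replicate 2. AGO1 and Tudor-SN make 2 of 9 (22.2%), beside 20.6% of all protein-coding genes, so the share of the 9 genes was near that of the genome. The list from pooled reads (4044 regions) added Dcr-2 and loqs and reached 4 of 9, beside 27.3% of coding genes. The list of replicate 1 alone (2803 regions) held AGO1, Dcr-2, r2d2 and Tudor-SN, again 4 of 9, beside 21.9%. The shorter list of replicate 2 (1629 regions) held AGO1, r2d2 and Tudor-SN, 3 of 9 beside 12.7%. AGO2, Dcr-1, drosha and pasha had no called region in any of the 4 lists. Each of these 4 genes had weaker regions in the ranked lists, which give candidates before the limit is applied.

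**Figure D1:**
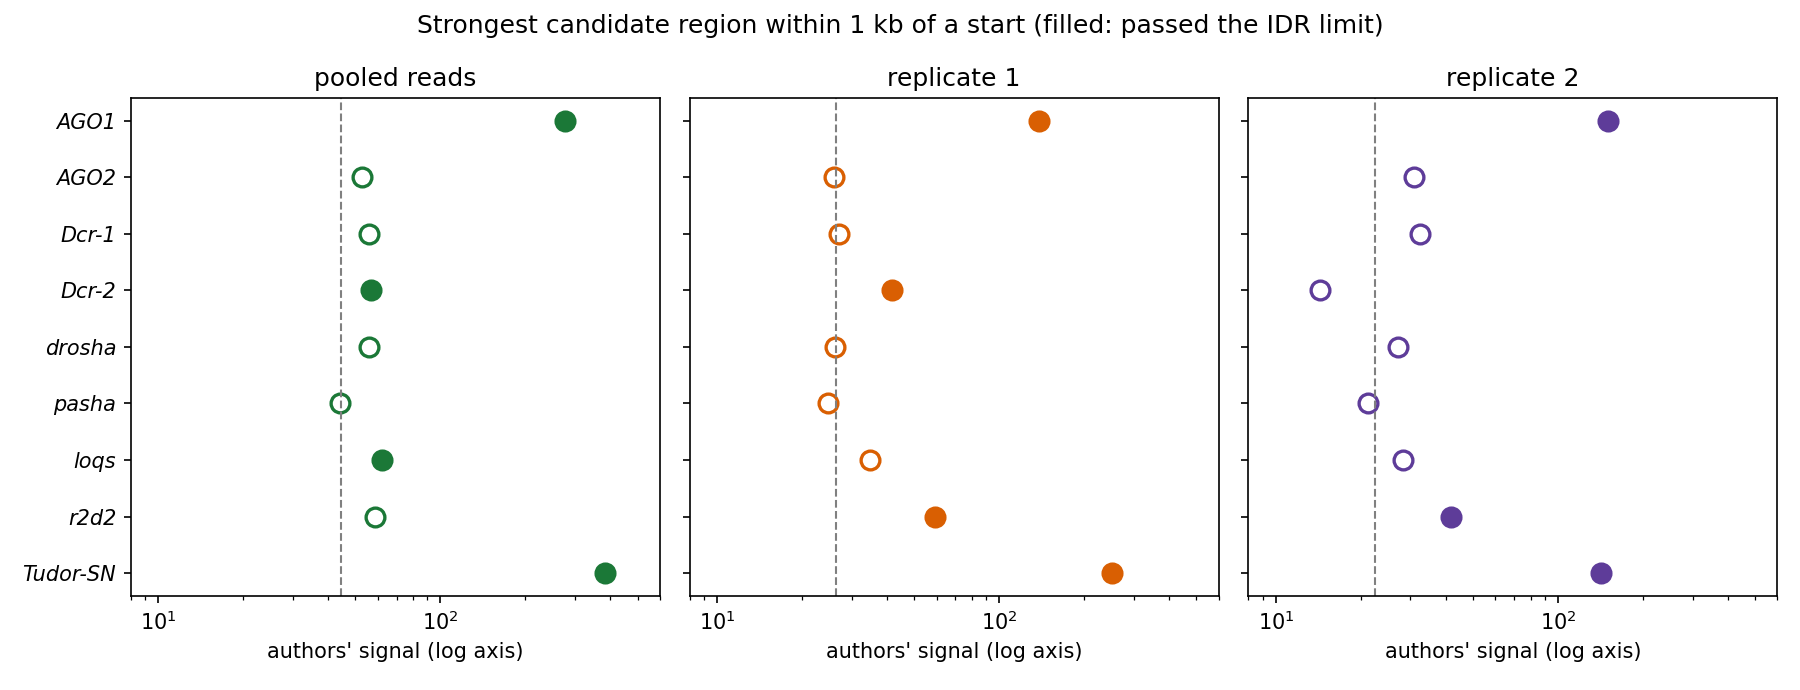
The authors' signal (log axis) of the strongest candidate region within 1 kb of a start of each of the 9 genes, in the ranked lists of pooled reads, replicate 1 and replicate 2. Filled points passed the IDR limit, open points did not, and the dashed line is the median of the same value over all protein-coding genes with a candidate (44.5, 26.5 and 22.5). AGO1 and Tudor-SN stand to the right of the other 7 genes in each panel, and Dcr-2 lies above the median in replicate 1 and below it in replicate 2.

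AGO1 (FBgn0262739), the Argonaute that carries most miRNAs, lies on the minus strand at chr2R:13943387-13958089 (dm6). Its region in the conservative list, chr2R:13954091-13954216, had a signal of 277 and rank 154 of 2752. The pooled list gave the same interval and signal. In replicate 1 alone the overlapping region had a signal of 138 and rank 289 of 2803, and in replicate 2 alone it had 149.9 and rank 70 of 1629. AGO1 thus stood in the upper part of each list, with 10.3% of regions above it in replicate 1 and 4.24% in replicate 2.

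AGO1 has 3 annotated starts, and the called region lay at the innermost of them, that of transcript AGO1-RB, 4064 bp inside the outermost. The summit was 139 bp upstream of this start, in an intron of the longer transcripts. It lay nearer, at 31 bp, to a start that CG33155 and mRpL53, a mitochondrial ribosomal protein gene, share on the other strand. This summit lay between the AGO1-RB start and the shared start, as did that of each replicate. In replicate 2 the summit was 95 bp from AGO1-RB and 75 bp from the shared start, which was still the nearer. The region therefore cannot be assigned to AGO1 alone, and with summits given only to the nearest start, AGO1 lost it. By that rule 1 of the 9 genes, Tudor-SN, had a region, beside 14.6% of coding genes. At the outermost AGO1 start (AGO1-RC and AGO1-RD) the strongest candidate between replicates had a signal of 40.3, and at the start of AGO1-RA 30.4. Neither passed the limit in any list. Just outside the 1 kb window, at 1081 bp from a start, replicate 2 had a called region of signal 38.5 in an intron of AGO1.

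**Figure D2:**
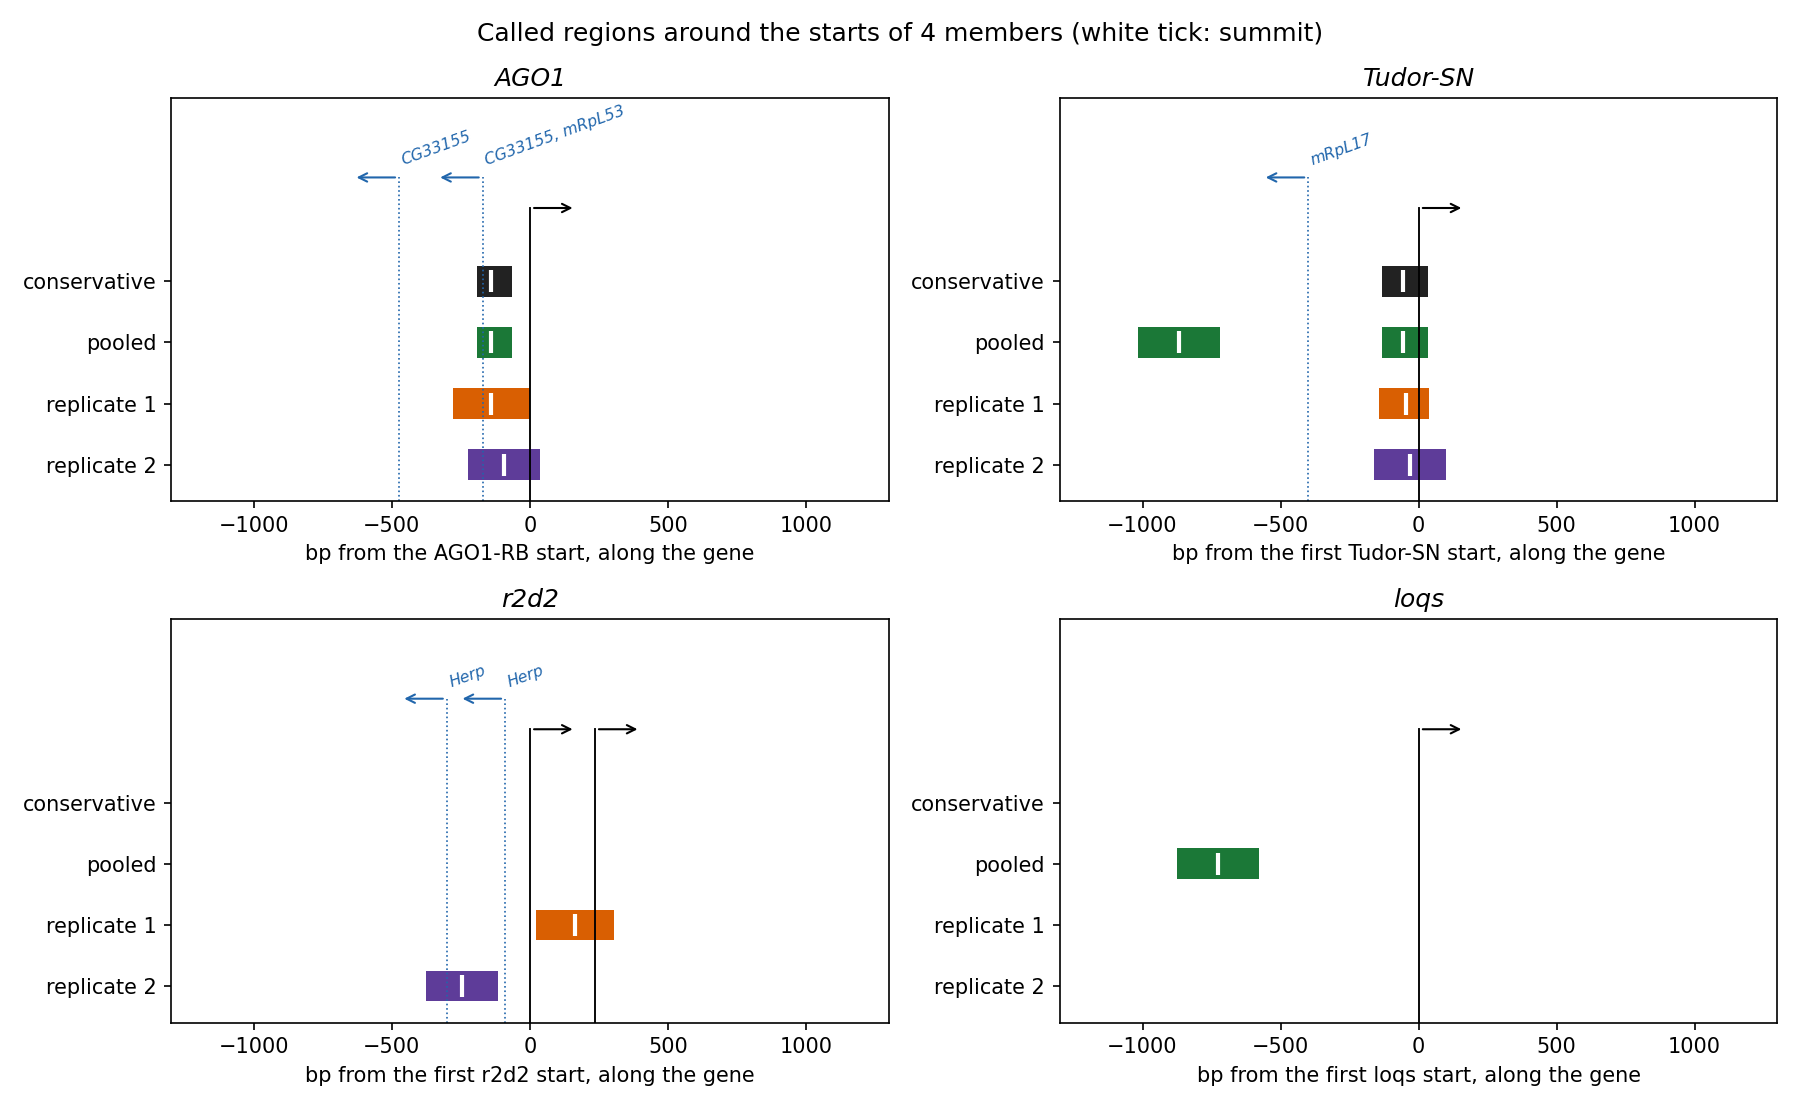
Called regions (bars) and their summits (white ticks) in the 4 lists around the starts of AGO1, Tudor-SN, r2d2 and loqs, with the distance in bp along the direction of the gene on the horizontal axis. Black arrows mark starts of the named gene, and blue arrows with dotted lines mark starts of neighbouring genes. The AGO1 and Tudor-SN regions overlap in all lists, the r2d2 regions of the replicates lie apart, and loqs has 1 region, in the pooled list, upstream of its start.

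AGO2 (FBgn0087035, chr3L:15554113-15561042, plus strand), the Argonaute of the siRNA pathway, had no called region. In the conservative list the nearest summit beyond 1 kb lay 23790 bp away, at mrn. Its strongest candidate had a signal of 52.8 between the replicates, at 225 bp downstream of the first start, in the coding sequence. In replicate 1 the strongest candidate had 25.9 at 349 bp and in replicate 2 31.0 at 261 bp, so the summits lay within the same stretch. The −log10 of its IDR was 1.64 between the replicates, where a value of 2 was needed (an IDR of 0.01). The second AGO2 start, that of AGO2-RE, had no candidate in the ranked list between the replicates. The AGO2 protein begins with a glutamine-rich region, and the 101 bases around the candidate summit are shown because they hold runs of CAG and of CAA, both of them glutamine codons when in frame. They are chr3L:15554288-15554388, plus strand, read 5′ to 3′ from the Release 6 assembly, with capitals marking CAGCAG and CAACAA.
AGO2 candidate: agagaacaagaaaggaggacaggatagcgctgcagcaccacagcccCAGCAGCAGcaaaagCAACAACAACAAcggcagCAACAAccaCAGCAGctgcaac
The window held 4 copies of CAACAA and 3 of CAGCAG, counting overlaps and either strand. Of all ranked regions between the replicates, 10.8% had at least 1 CAACAA and 12.2% at least 1 CAGCAG within 50 bp of the summit. The share with as many copies as the AGO2 window was not computed. These motifs were chosen after the sequence was seen.

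Tudor-SN (FBgn0035121, chr3L:259043-264380, minus strand) had the strongest region of the 9 genes in the conservative, pooled and replicate 1 lists, and in replicate 2 that of AGO1 was stronger. The conservative region, chr3L:264345-264514, had a signal of 383 and rank 77 of 2752, with its summit 56 bp upstream of the start that both transcripts (Tudor-SN-RA and Tudor-SN-RB) share. The overlapping region had a signal of 252 and rank 63 in replicate 1 and 142 and rank 78 in replicate 2. The summits of the replicates lay 44 and 31 bp upstream of the start, 13 bp from each other. The gene of the mitochondrial ribosomal protein mRpL17 starts 399 bp away on the other strand, and the conservative summit was 343 bp from that start. The 101 bases around the conservative summit, chr3L:264386-264486, are shown because they hold the summits of both replicates and end just upstream of the start. They are written along the Tudor-SN strand (minus), 5′ to 3′, from the same assembly, and capitals mark TATCG, which is CGATA on the other strand.
Tudor-SN summit: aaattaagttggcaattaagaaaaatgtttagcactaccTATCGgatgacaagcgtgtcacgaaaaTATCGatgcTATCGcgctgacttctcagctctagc
CGATA is known as the core of sites bound by the boundary factor BEAF-32, and it occurred 3 times within 50 bp of the summit. Of all conservative regions, 15.3% had at least 3 copies in a window of that length, as did 4.07% of the windows around coding starts. CGATA was added after the sequence was seen, and its match says nothing of which protein was there.

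Further regions lay upstream of and inside Tudor-SN. The pooled list held a second region at 868 bp upstream of its start (chr3L:265100-265395, signal 69.2, rank 2777 of 4044), in the coding sequence of mRpL17. Replicate 1 had a candidate there, with 10.6% of its ranked regions higher, and replicate 2 had none. Just beyond the window, at 1498 bp from the start, the conservative list had a region of signal 129.7 in an intron of Tudor-SN, 929 bp from snoRNA:Psi18S-996. Replicate 1 had it at 1500 bp with a signal of 87.6, and the nearest region beyond 1 kb in replicate 2 lay 6091 bp away.

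r2d2 (FBgn0031951, chr2L:7800147-7802098, plus strand), whose protein binds double-stranded RNA beside Dicer-2, had a called region in each replicate alone and none in the pooled or conservative list. The replicate 1 region, chr2L:7800171-7800450, had a signal of 59.2 (rank 1526 of 2803). Its summit lay in the 5' untranslated region, 71 bp upstream of the inner start (r2d2-RB). The replicate 2 region, chr2L:7799772-7800031, had a signal of 41.8 (rank 1476 of 1629), with its summit 245 bp upstream of the outer start (r2d2-RA and r2d2-RC). This summit was 55 bp from a start of the divergent gene Herp, in the 5' untranslated region of Herp. The regions did not overlap, and their summits were 409 bp apart. At the replicate 1 region, replicate 2 had a candidate of signal 13.7, with 46.4% of its ranked regions higher. At the replicate 2 region, replicate 1 had no candidate. Neither summit had any of the 5 promoter motifs searched within 50 bp, and the GC content of that window was 28.7% in replicate 1 and 46.5% in replicate 2.

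The r2d2 pattern was looked for in all genes after its values were seen. Of coding genes, 11.2% were called in both replicate lists, as were 3 of the 9 genes here (AGO1, r2d2 and Tudor-SN). Of those 1558 genes, 7 (0.449%) had none in the conservative or pooled list. They were r2d2 with its neighbour Herp, CG3651, IFT43, PICK1, Syb and loco. For Syb and loco the regions of the replicates overlapped, and for the other 5 they did not. The smallest gap between summits was 409 bp for both r2d2 and Herp, and 404 bp for both IFT43 and PICK1 on 2L. The 7 genes are therefore not all separate places, as neighbouring genes can share the same regions.

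loqs (FBgn0032515, chr2L:13382652-13385671, plus strand), whose protein isoforms partner with either Dicer, was called in the pooled list. All 6 loqs transcripts share 1 annotated start. The pooled region, chr2L:13381778-13382073, had a signal of 61.9 and rank 3340 of 4044, and its summit lay 726 bp upstream of the start, in a coding exon of the neighbouring coatomer gene beta'COP. Between the replicates it fell just short of the limit, with a −log10 IDR of 1.96. Candidates overlapped it in both replicates, with a signal of 35.0 in replicate 1 (3.75% of ranked regions higher) and 28.3 in replicate 2 (4.71% higher). Both candidates missed the limit. Nearer to the start, the candidate at 488 bp downstream had a pooled signal of 36.9. In replicate 1 the candidate there had 32.9 at 426 bp (4.44% higher), close to the upstream one. In replicate 2 it had 18.0 at 530 bp (25.1% higher). The summit window of the pooled region is shown because it lies wholly in coding sequence of the neighbouring gene. It is chr2L:13381876-13381976 on the plus strand, 5′ to 3′, with a GC content of 60.4%, and no letters are in capitals because it held none of the 5 promoter motifs.
loqs pooled region: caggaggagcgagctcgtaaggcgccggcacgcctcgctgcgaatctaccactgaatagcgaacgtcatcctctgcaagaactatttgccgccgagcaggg

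Both Dicer genes had a candidate at the start, and it was called for Dcr-2 alone. Dcr-2 (FBgn0034246, chr2R:17574979-17581525, minus strand) was called in the pooled list at chr2R:17581376-17581671, with a signal of 56.8 and rank 3695 of 4044. The summit lay 1 bp from its start, the shortest distance among the called summits of the 9 genes. In replicate 1 alone the region had a signal of 41.7 and rank 2478 of 2803. In replicate 2 the overlapping candidate had a signal of 8.85, with 75.5% of ranked regions higher, and the strongest within 1 kb had 14.4 at 437 bp downstream, in the coding sequence. The Dcr-2 region thus passed in replicate 1 and was weak in replicate 2. Dcr-1 (FBgn0039016, chr3R:22734007-22741091, minus strand) had no called region, and the nearest one in the conservative list lay 9720 bp from its start. Its strongest candidate between the replicates, with a signal of 55.9, lay 494 bp upstream, in the coding sequence of the divergent gene CG6985. In replicate 1 the strongest (27.0) lay 52 bp inside Dcr-1, and in replicate 2 the strongest (32.4) lay 501 bp upstream. At the Dcr-1 start itself, the list between the replicates had a candidate at 6 bp with a signal of 41.1 and a −log10 IDR of 1.59, above the 0.95 of the strongest. Replicate 2 had one there too, at -41 bp, with a signal of 27.8.

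The genes of the nuclear step, drosha and pasha, had no called region. drosha (FBgn0026722, chr2R:7932429-7936840, plus strand) encodes the nuclease, and its start lies 49 bp from that of rnh1 on the other strand. Its strongest candidate had a signal of 55.8 between the replicates, at 75 bp downstream of the start, with a −log10 IDR of 1.52. In replicate 1 it had 26.3 at 73 bp and in replicate 2 27.2 at 92 bp, so the summits of the replicates lay close together. pasha (FBgn0039861, chr3R:31617977-31622217, plus strand) encodes the RNA-binding partner and had the weakest candidates of the 9 genes in the pooled reads. Its 3 starts span 1012 bp. The strongest candidate between the replicates had a signal of 44.0 at 829 bp upstream, in the coding sequence of CG1792. In replicate 1 the strongest lay at the first start (24.8, 63 bp downstream) and in replicate 2 at the second (21.2, 21 bp upstream). The nearest conservative region beyond 1 kb was 29434 bp from a pasha start.

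The 9 genes fell into a strong pair, AGO1 and Tudor-SN, and a weaker group. AGO1 stood in the pair through the region whose summit was nearer to the shared start of CG33155 and mRpL53. At its other starts the strongest candidates between the replicates had signals of 40.3 and 30.4. Of the coding genes, 89.7% had a candidate within 1 kb in the ranked list between the replicates, as had all 9 genes. Their strongest signals ran from 44.0 to 383 with a median of 56.8, beside a median of 44.8 over all coding genes with a candidate (interquartile range 32.0 to 69.3). Tudor-SN had 0.895% of these genes above it and AGO1 1.92%. The next, loqs, had 29.6% above it, and pasha, the lowest, had 51.4%. In replicate 1, 6 of the 9 genes were above the median of coding genes, and in replicate 2, 7 were. Dcr-2 differed most between replicates, with 25.9% of genes above it in replicate 1 and 84.3% in replicate 2. For r2d2 the shares were 15.5% and 15.1%. For both genes the strongest regions of the replicates lay in different places. For AGO2 the shares were 51.4% and 26.2%, and for Dcr-1 48.9% and 24.1%. In the list between the replicates, 5 of the genes (AGO2, Dcr-1, Dcr-2, drosha and r2d2) had strongest signals between 50 and 60. Of the 1381 coding genes in that band, which was chosen after the values were seen, 41 (2.97%) had a conservative region.

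**Figure D3:**
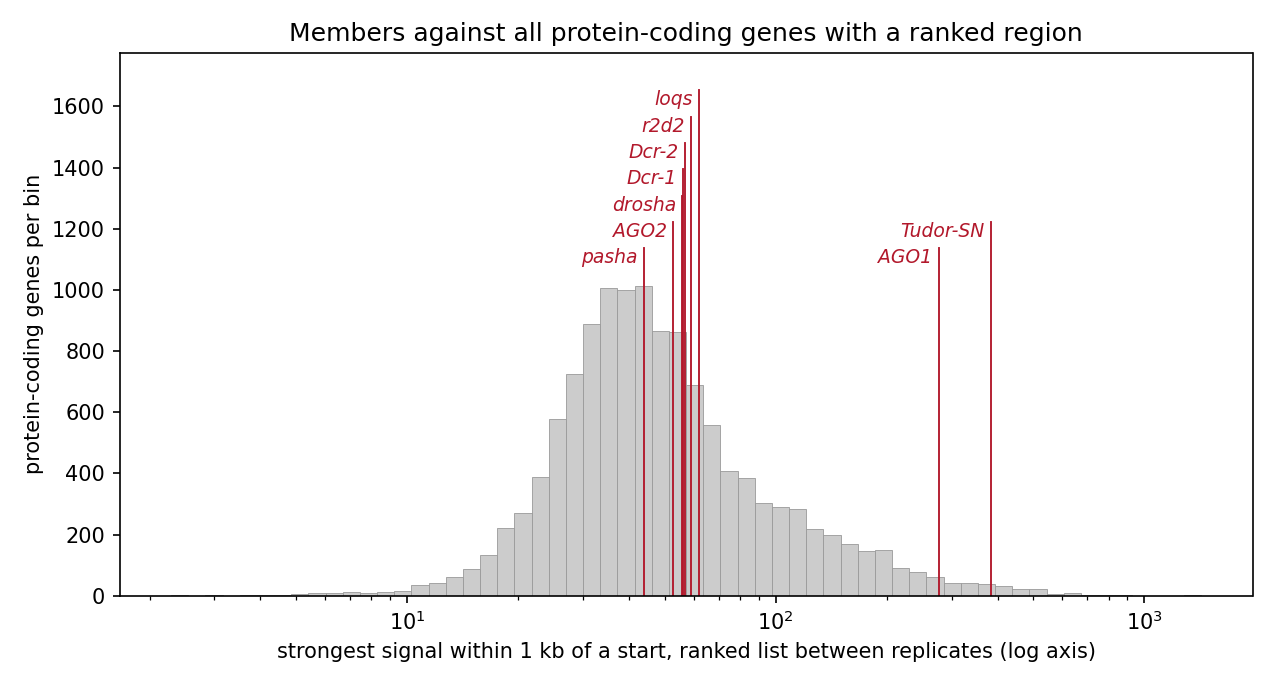
Number of protein-coding genes (vertical axis) by the strongest signal within 1 kb of a start in the ranked list between the replicates (log axis), with each of the 9 genes as a red line. Pasha to loqs lie between 44.0 and 61.9, near the middle of the distribution, and AGO1 (277) and Tudor-SN (383) lie in its upper tail. The AGO1 value is that of the region whose summit was nearer to the shared start of CG33155 and mRpL53.

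The neighbourhood of the starts varied among the 9 genes. A divergent coding start within 500 bp was present for 5 of them (AGO1, Dcr-1, drosha, r2d2 and Tudor-SN), beside 27.4% of all coding genes. AGO1 and Tudor-SN, with conservative regions, were among these 5, and none of the other 4 genes had one. Across the genome 33.5% of coding genes with a divergent start had a conservative region, and 15.7% of those without. A summit within 1 kb of both divergent starts counted for both genes, so these shares depend on the counting rule. How much of the difference comes from that rule was not tested. For the 7 genes without a conservative region, the summit of the strongest candidate in the ranked list between the replicates lay in the gene's own 5' untranslated region in 3 cases (Dcr-2, drosha and r2d2). It lay in the gene's own coding sequence in 1 (AGO2) and in the coding sequence of a neighbour in 3 (Dcr-1, pasha and loqs). The places were not the same in single replicates. The strongest candidate of pasha lay in its own 5' untranslated region in both replicates, and that of Dcr-1 did so in replicate 1. In replicate 2 those of drosha and Dcr-2 lay in their own coding sequence, and that of r2d2 lay in the 5' untranslated region of Herp.

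A set of 5 promoter motifs was searched on both strands within 50 bp of the summits. They were the DNA replication-related element (DRE) TATCGATA, the motif 1 core GGTCACACT, the GAGAG bound by GAGA factor, the E-box CACGTG and the TATA box TATAAA. Neither conservative summit, at AGO1 or Tudor-SN, had any of the 5, nor had the strongest candidate of the other 7 genes. The replicate 2 summit at AGO1, 44 bp from the conservative one, did have a GAGAG. For comparison, DRE was found at 12.6% of the conservative regions and 4.48% of coding starts, and GAGAG at 12.8% and 12.7%. Motif 1 was found at 3.49% and 3.64%, the E-box at 1.93% and 1.82% and the TATA box at 7.03% and 15.5%. Of CGATA, 2 copies lay at the conservative AGO1 summit beside the 3 at Tudor-SN, and 0 at the replicate 2 summit of AGO1. The share of regions with at least 2 copies is not given here. CGATA was found at least once at 42.6% of conservative regions and 23.6% of coding starts. The TATCG within DRE is CGATA on the other strand, so those counts overlap.

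Other genes of these pathways were looked at beside the 9. A list of 35 genes covered export, RISC loading, the processing of RNA ends and the silencing and decay of target RNAs. Of these genes, 16 (45.7%) had a conservative region, beside the 20.6% of coding genes. This list was written with results of the whole series known. The counts were 20 in the pooled list (57.1%, beside 27.3% of coding genes), 17 in replicate 1 (48.6%, beside 21.9%) and 14 in replicate 2 (40.0%, beside 12.7%). For the 16 genes, conservative signals ran from 65.8 to 240.4 with a median of 149.5. The region overlapped one of each replicate in 12 of them. The summit lay within 100 bp of a start of the gene in 12, and in 4 the start of another gene was nearer. The strongest was at bel, a DEAD-box RNA helicase gene, with a signal of 240.4 (149 in replicate 1 and 81.6 in replicate 2) at 58 bp. Patr-1, an activator of decapping, had 209 (128 and 83.7) at 26 bp. pAbp, the gene of the cytoplasmic poly(A)-binding protein, had 206 (132 and 64.3) at 11 bp. Not1, the scaffold of the CCR4-NOT deadenylase, had 204 (132 and 73.3) at 60 bp. Trax, a subunit of the RISC activator C3PO, had 191 (144 and 62.8) at 13 bp, and a start of Cog2 was 22 bp from the same summit. In the conservative list all 5 stood below the 277 of AGO1 and the 383 of Tudor-SN. The difference between the lists of 9 and 35 genes was not tested.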

How the data were processed

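Per the labels, chromatin of whole embryos was sonicated (size range 200 to 800) and precipitated with an antibody against GFP, in 2 biological replicates. Per the labels the build is dm6. For aligner and peak caller, names and versions: not given in the sources used here. Deposited were a thresholded and a ranked list for each replicate, for pooled reads and for the comparison between replicates. The signal is the authors' own value per region, and no unit is given for it, so signals were ranked within a list and lists were not compared by signal. The deposited ranked lists carry the authors' −log10 of the global IDR, and no region of the thresholded lists had a value below 2. The deposited files hold no counts, so depth and its precision are unknown, and no interval is given. The labels say no more of the replicates than that they are biological.

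Starts were those of Ensembl release 115 (transposable elements left out), and bases were read from RefSeq's copy of the Release 6 assembly. The spans of all 9 genes were equal in both. Computation used Python 3.11.15 and pandas 2.3.3. The functions were tested on simulated data first. The members, gene lists and tests were chosen with earlier results of these data known. Named are all 9 genes, genes that share their regions or lie nearer to a summit, and the 5 other pathway genes of highest signal. Alternatives were other lists, windows of 500 bp and 2 kb, the nearest or outermost start, and narrower and wider motif windows.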

Additional observations from a re-analysis of the deposited data

How the results depend on the processing

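The count of the 9 genes with a conservative region, 2, beside 20.6% of coding genes, was also 2 with windows of 500 bp (18.0% of coding genes) and 2 kb (24.5%) and among regions above the median signal (1672 of 13945 coding genes). It was 4 in the pooled list (27.3%), 3 without replicate 1 (12.7%) and 4 without replicate 2 (21.9%). It was 1 with the nearest start only (14.6%) and 1 with the outermost start only (19.4%), each of which dropped AGO1. Of the 2 conservative summits, 0 had a fixed motif within 50 bp or 25 bp, and 2 had one at 100 bp or 150 bp to either side. At 100 bp the motif was GAGAG at both, found at 24.9% of conservative regions and about as often at coding starts. At 150 bp GAGAG was found at 33.5% of conservative regions and 33.6% of coding starts, and Tudor-SN also had a TATA box. The conservative regions of AGO1 and Tudor-SN overlapped both replicates, also when an overlap of at least 0.5 of the shorter region was asked for. The count of other pathway genes, 16, ranged from 13 to 20 over its alternatives, of which the outermost start and the median signal were chosen after seeing the data. No paired analysis was possible because there was 1 group. No difference was tested, as there were 2 replicates of 1 group, and a region shared by neighbouring starts cannot be assigned to a single gene.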

Other observations

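The 35 other pathway genes were grouped by role after their values were seen, and the counts stand beside 20.6% of all coding genes in the conservative list and 27.3% in the pooled list. Of 14 genes of deadenylation, decapping and the GW182 complex, 7 had a conservative region (Patr-1, pAbp, Not1, PAN3, PAN2, DCP2 and Pop2) and 8 a pooled one. The summits at PAN3, PAN2 and DCP2 lay nearer to a start of another gene, CG32486 (22 bp), AIMP1 (7 bp) and dbo (11 bp). Both C3PO genes, Trax and trsn, had a conservative region. So had 4 of 6 genes of RISC-associated proteins (bel, vig, Rack1 and Rm62), with 3 in the pooled list. Rm62 (signal 74.0, rank 2187 of 2752) was called in the conservative list alone, and its region overlapped no called region of either replicate. Among 5 chaperones of RISC loading, Hsc70-4 and p23 had one in the conservative list, and 4 of the 5 had one in the pooled list. Of the 4 genes grouped as acting on RNA ends, Tailor had a conservative region. Its summit lay 30 bp from a start of alphaTub84B and 546 bp from a Tailor start. None of the 3 cap-binding complex genes had a conservative region, but 2 of them (Ars2 and Cbp80) had a pooled one, and Cbp80 also had one in replicate 1. The export gene Ranbp21 had none in any of the 4 lists. In all, 13 of the 35 genes had no called region in any of the 4 lists. These shares were not tested.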
